A study of Mus musculus with 108 samples.

Results

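The calcium/calmodulin-dependent protein kinases (CaM kinases) are described here by 9 genes, Camk2a, Camk2b, Camk2d, Camk2g, Camk4, Camk1, Camk1d, Camkk1 and Camkk2, which were found by their symbols among the 53465 genes of the count table. RNA was sequenced from neocortex (CX), hippocampus (HIP) and cerebellum (CB) of wild-type (WT) mice and of Cul3+/- (HET) mice, which carry a 1 bp insertion in exon 6 of Cul3 made with CRISPR/Cas9. All mice were on the C57BL/6N background, and the mutants descended from 1 founder that was bred to WT mice for several generations. Tissue was taken at the embryonic age E17.5, at postnatal day 7 (P7) and in adults (P35, at 4 to 6 weeks), with no treatment. Every mouse gave 1 library per region. For 2 adult mice the sources gave opposite genotypes, and their 6 libraries were left out, so the values below rest on 102 of 108 libraries, from 6 mice of each genotype at E17.5 and P7 and 5 at P35.

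CaM kinases phosphorylate serine and threonine residues when calmodulin, loaded with calcium, binds to them. CaMKII is a large ring of subunits from the 4 Camk2 genes that can keep itself active by autophosphorylation, and its alpha and beta subunits are abundant at excitatory synapses of the forebrain, where they act in synaptic plasticity. CaMKI (Camk1, Camk1d) and CaMKIV (Camk4, a largely nuclear kinase that acts on transcription factors such as CREB) are switched on by the upstream kinases Camkk1 and Camkk2, and Camkk2 can also activate AMPK. Cul3 is the scaffold of a ubiquitin ligase.

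The annotation of the mouse build GRCm38 places all 9 as protein-coding genes. Camk2a lies at chr18:60925618-60988152 (+), Camk2b at chr11:5969644-6066362 (-), Camk2d at chr3:126596302-126846326 (+) and Camk2g at chr14:20734875-20794088 (-). Camk4 lies at chr18:32934931-33191228 (+), Camk1 at chr6:113334124-113343984 (-) and Camk1d at chr2:5293457-5714515 (-). Camkk1 is at chr11:73019008-73042073 (+) and Camkk2 at chr5:122731170-122779409 (-). Counts were summed over all transcripts of a gene, of which the annotation lists 28 for Camk2d and 3 for Camkk1, so isoforms were not told apart.

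Library totals ran from 15126114 to 44411282 counts. Cul3 was lower in every HET library than in every WT library of its period and region in 9 of 9 datasets, with HET means between 50.2% and 61.0% of the WT means. The labelled tissues were checked against marker genes, scored by the mean log2 CPM (counts scaled to library size) of each list. Cerebellar genes (8 genes, among them En2 and Gabra6) had WT medians of 5.50, 7.48 and 7.73 in CB at E17.5, P7 and P35, against 0.25, -0.14 and 0.51 in CX. Hippocampal genes (6 genes, among them Prox1) were at 6.20, 4.86 and 4.25 in HIP, against 2.22, 2.07 and 1.74 in CX. Choroid plexus genes were uneven among libraries of a group, with a lowest score of 0.66 and a highest of 6.05 in the 5 adult WT cerebella. In CB their median score was also higher in HET than in WT mice, 4.70 against 0.80 at P7 and 4.00 against 1.61 at P35. Glial markers moved with age: the WT medians at E17.5, P7 and P35 were 4.30, 7.20 and 7.34 in CX, 5.03, 7.99 and 7.88 in HIP and 5.82, 8.93 and 8.14 in CB for astrocytes (4 of 4 genes measured), and -0.25, 2.28 and 8.83, -0.30, 2.01 and 9.10, and 0.44, 6.85 and 8.90 for oligodendrocytes (5 of 5). Immediate early genes (5 of 5) were at 0.39, 3.32 and 6.69 in CX, 0.68, 3.12 and 4.97 in HIP and 0.60, 1.10 and 3.68 in CB. The part of these markers in the results was not tested.

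All 9 genes were measured in every period and region, and they differed in how far and in which order their levels spread over the 9 groups. Levels below are CPM after TMM normalization, as mean ± SD over 6 mice at E17.5 and P7 and 5 at P35. Libraries came from bulk tissue, so fewer cells of a type and less RNA per cell cannot be told apart. In WT mice the mean of the highest group was 207 times that of the lowest for Camk2a, 18.9 times for Camk4, 17.8 times for Camk2d and 13.0 times for Camk1d. Those spans were 8.98 times for Camk2b, 7.96 for Camkk1, 4.57 for Camkk2, 4.46 for Camk2g and 3.01 for Camk1. The lowest and the highest group did not overlap for any of the 9 genes, but they were picked as extremes by these same values. The share over all genes was not computed. In HET mice the same groups were highest and lowest for 8 of the 9, and for Camkk2 adult CB (323 CPM) took the place of adult CX.

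**Figure D1:**
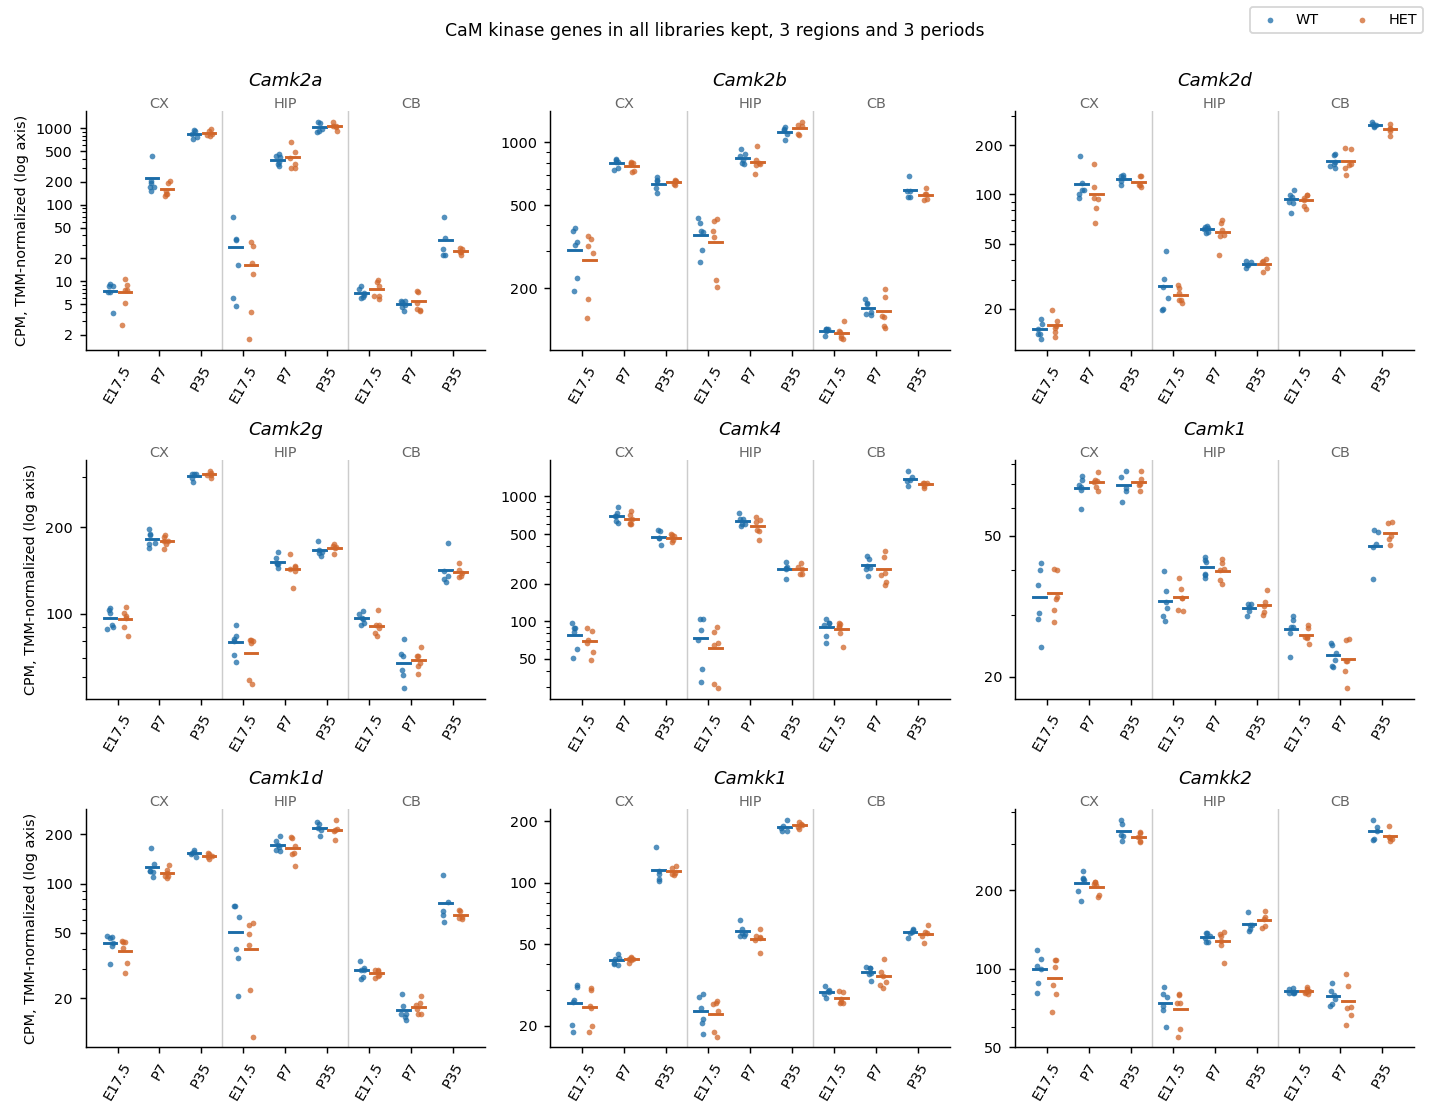
Level of each CaM kinase gene in CPM (log axis) in every library, by region and period; points are libraries (blue WT, orange HET) and bars are group means. Camk2a runs from a WT mean of 4.96 CPM in P7 CB to 1028 CPM in P35 HIP, while the WT group means of Camk1 lie between 23.03 and 69.4 CPM.

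Camk2a, which encodes the alpha subunit of CaMKII, was highest in the postnatal forebrain. The 5 adult WT hippocampi held 972, 913, 1191, 895 and 1169 CPM of Camk2a (mean 1028 ± 142), and the 5 adult WT cortices held 762, 917, 949, 717 and 851 CPM (839 ± 98.9). These ranges overlapped each other and lay above every other group. The adult WT cerebella held 21.9, 26.4, 68.4, 36.2 and 22.1 CPM (35.01 ± 19.6) and 1 of the 5 stood apart. At P7 Camk2a was at 388 ± 54.9 CPM in WT HIP, at 4.96 ± 0.590 in CB, and in CX between 152 and 436 with a median of 183. At E17.5 the WT means were 7.41 ± 1.96 CPM in CX and 7.03 ± 1.01 in CB, whereas the 6 hippocampi were spread from 4.68 to 69.0 CPM around a median of 25.6.

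Camk2b, which encodes the beta subunit that anchors CaMKII to actin, was already abundant in the embryonic forebrain. In WT CX it went from 306 ± 80.3 CPM at E17.5 to 793 ± 38.4 at P7 and 635 ± 44.5 at P35. Hippocampal Camk2b stood at 361 ± 63.1, 846 ± 54.4 and 1121 ± 64.9 CPM at the same ages. In CB it was at 125 ± 3.95 and 161 ± 11.9 CPM at E17.5 and P7, and the 5 adult cerebella held 587, 582, 693, 549 and 545 CPM (591 ± 59.9). The adult cerebella did not overlap with either younger age.

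Camk2d and Camk2g, which encode the delta and gamma subunits and are also expressed widely outside the brain, did not share that order. Camk2d was highest in CB at every age, with WT means of 93.1 ± 9.98, 159 ± 13.0 and 266 ± 6.73 CPM at E17.5, P7 and P35. In CX the Camk2d means were 14.9 ± 1.55, 116 ± 28.8 and 125 ± 7.58 CPM. Hippocampal Camk2d was at 27.6 ± 9.51 CPM at E17.5, peaked at 61.4 ± 2.33 at P7 and was at 37.5 ± 1.40 at P35, where the 5 libraries (35.5 to 39.0) lay below all cortical ones (113 to 132). Camk2g was at 96.3 ± 7.01 CPM in CX and 96.4 ± 4.06 in CB at E17.5, and at P35 it stood at 301 ± 7.87 in CX, 166 ± 7.49 in HIP and 142 ± 19.1 in CB.

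Camk4 had its highest level in the adult cerebellum, where the 5 WT libraries held 1362, 1334, 1600, 1429 and 1202 CPM (mean 1385 ± 146). The highest library of any other WT group held 821 CPM. In the forebrain the order was different: Camk4 was at 78.0 ± 18.0 CPM in CX and 73.3 ± 30.9 in HIP at E17.5, peaked at 698 ± 74.9 and 640 ± 57.5 at P7, and was at 478 ± 53.6 and 264 ± 28.0 at P35. Camk1 and Camk1d encode CaMKI isoforms that act in neurite growth. The WT means of Camk1d were highest in HIP at each age, at 50.7 ± 21.8, 172 ± 13.8 and 219 ± 16.2 CPM. In CX they were 43.1 ± 5.74, 126 ± 19.5 and 153 ± 5.60, with ranges that overlapped those of HIP at E17.5 and P7. In CB they were 29.5 ± 2.72, 16.9 ± 2.33 and 76.3 ± 21.6. Camk1 was highest in CX at P7 and P35, at 68.5 ± 4.86 and 69.4 ± 5.48 CPM. At E17.5 it stood at 33.7 ± 6.86 CPM in CX and 32.8 ± 4.04 in HIP, with overlapping ranges, and its 9 group means covered the narrowest span of the family.

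The upstream kinases differed from each other. Camkk1 was at 23.5 ± 4.09 CPM in HIP at E17.5, at 58.1 ± 4.19 at P7 and at 187 ± 10.2 at P35, where the 5 WT libraries (178 to 204) lay above all adult cortices (102 to 149) and cerebella (53.8 to 59.4). Camkk2 was highest in adult CX and CB, at 339 ± 26.2 and 338 ± 25.5 CPM with overlapping ranges, and stood at 148 ± 9.74 in adult HIP. Of the 8 steps between neighbouring groups in the order of WT means, the ranges overlapped at 7 for Camk1, 6 for Camk2g and Camk1d, 5 for Camk2a, 4 for Camk4 and Camkk2, and 3 for Camk2b, Camk2d and Camkk1.

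The question of the period comparisons is how each gene moved between E17.5, P7 and P35 within a region. Between E17.5 and P7 all 9 genes rose in WT CX and all 9 rose in WT HIP (edgeR quasi-likelihood test, Benjamini-Hochberg adjusted p of at most 0.1 over all genes tested). Over all tested genes 41.3% were called higher and 40.6% lower in CX, and 38.9% higher and 39.1% lower in HIP. The median log2 fold change of the 9 genes was 1.32 in CX and 1.22 in HIP, against medians of 0.012 and -0.0046 over all tested genes. Camk2a rose most, 28.7-fold in CX (log2 fold change 4.84, SE 0.27, adjusted p = 1.69e-11) and 13.9-fold in HIP (3.80, SE 0.48, adjusted p = 1.23e-06). Camk4 rose 8.66-fold in CX and 8.67-fold in HIP, Camk2d 7.51-fold in CX and 2.21-fold in HIP, and Camk1d 2.83-fold and 3.36-fold. The other 5 genes rose by 1.57-fold (Camkk1) to 2.51-fold (Camk2b) in CX and by 1.23-fold (Camk1) to 2.44-fold (Camkk1) in HIP.

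The cerebellum split the family over the same interval. Camk4 (log2 fold change 1.64, SE 0.11), Camk2d (0.76, SE 0.068), Camk2b (0.36, SE 0.061) and Camkk1 (0.31, SE 0.048) rose between E17.5 and P7 in WT CB. Camk1d (-0.82, SE 0.13), Camk2g (-0.53, SE 0.085), Camk2a (-0.52, SE 0.23, adjusted p = 0.0553) and Camk1 (-0.26, SE 0.078) fell, and Camkk2 did not pass the test (-0.07, SE 0.055, adjusted p = 0.251). The background was 35.7% of tested genes higher and 35.5% lower.

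Between P7 and P35 it was the cerebellum in which all 9 genes rose, where 40.0% of tested genes were higher and 39.4% lower. Camk2a rose 7.11-fold (log2 fold change 2.83, SE 0.24), Camk4 4.96-fold (2.31, SE 0.12), Camk1d 4.56-fold (2.19, SE 0.14), Camkk2 4.34-fold (2.12, SE 0.059) and Camk2b 3.69-fold (1.88, SE 0.065). Camk2g, Camk1, Camk2d and Camkk1 rose by 2.13-fold, 2.06-fold, 1.69-fold and 1.57-fold. The cerebellar rise of Camk2a was 2.45 on the log2 scale without the 1 library at 68.4 CPM. In CX 5 genes rose, Camk2a (1.96, SE 0.24), Camkk1 (1.51, SE 0.13), Camk2g (0.76, SE 0.059), Camkk2 (0.70, SE 0.090) and Camk1d (0.31, SE 0.099). Camk4 (-0.51, SE 0.14, adjusted p = 0.00331) and Camk2b (-0.29, SE 0.14, adjusted p = 0.0852) fell there, and Camk2d (0.14) and Camk1 (0.05) did not pass. The background in CX was 33.2% higher and 34.5% lower.

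In HIP, where 31.3% of tested genes were higher and 31.5% lower at P35, Camkk1 rose 3.28-fold (log2 fold change 1.71, SE 0.094) and Camk2a 2.69-fold (1.43, SE 0.45). Camk2b (0.43, SE 0.098), Camkk2 (0.19, SE 0.071) and Camk2g (0.16, SE 0.066) rose by less. Camk4 fell by 1.25 on the log2 scale (SE 0.23), Camk2d by 0.69 (SE 0.16) and Camk1 by 0.36 (SE 0.074), and Camk1d did not pass (0.37, SE 0.22, adjusted p = 0.159). Leaving out single libraries ended the call of Camk2b in CX in 8 of 17 cases, of Camk2g in HIP in 3, of Camkk2 in HIP in 1 and of Camk2a between E17.5 and P7 in CB in 2.

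HET mice were tested separately for the same contrasts. Of 54 pairs of gene and contrast, 49 were called with the same sign in WT and HET, 1 was called in WT alone (Camk2b in CX after P7), 4 in neither genotype and none with opposite signs. The median gap between the WT and HET log2 fold changes was 0.064. The largest was 0.87, for Camk2a between E17.5 and P7 in HIP (3.80 in WT and 4.67, SE 0.52, in HET). In HET mice 85.3% of tested genes were called between E17.5 and P7 in CX, 79.2% in HIP and 75.1% in CB, and 73.1%, 65.0% and 79.3% between P7 and P35.

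**Figure D2:**
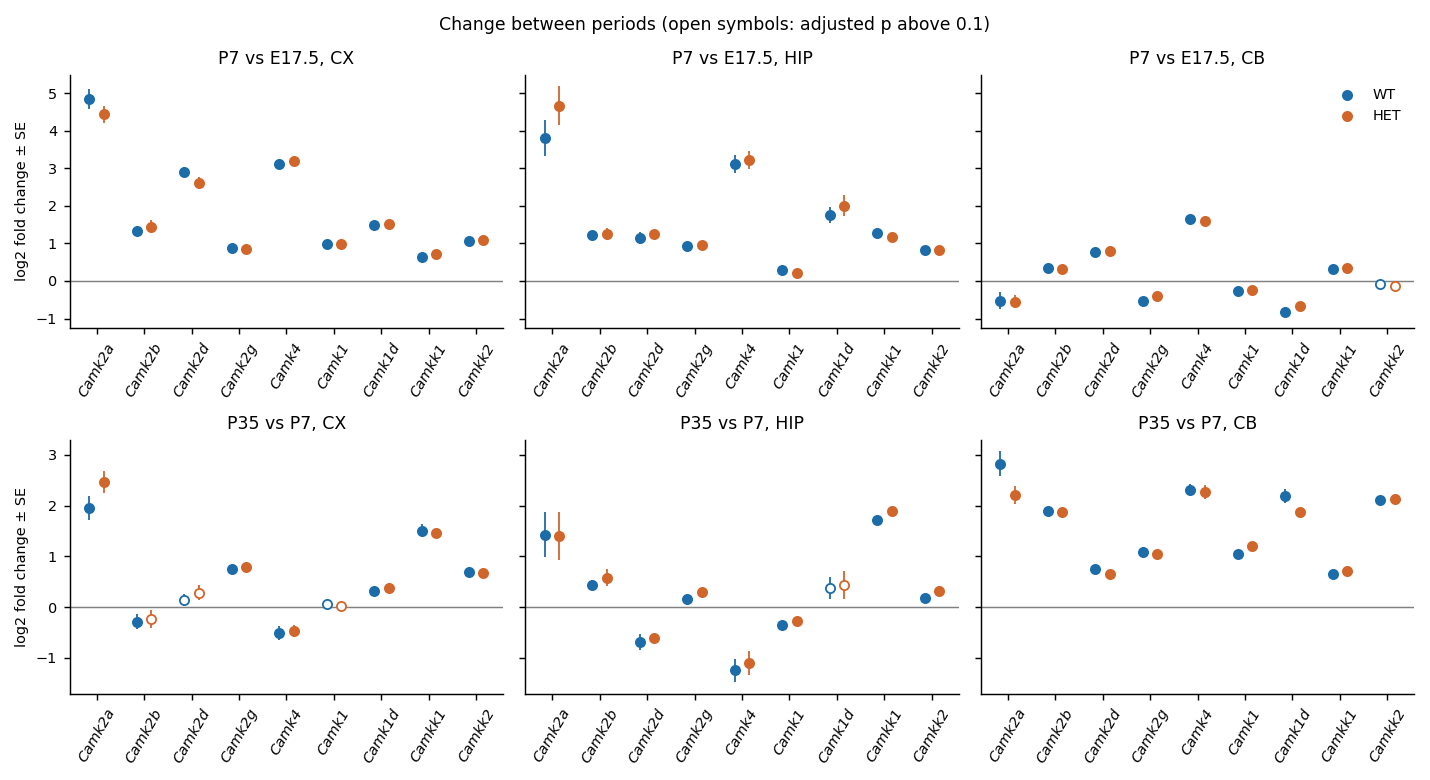
Log2 fold change between consecutive periods for each gene and region, with its SE, in WT (blue) and HET (orange) mice; filled symbols passed an adjusted p of 0.1. Camk2a has the largest rise between E17.5 and P7 in CX (4.84 in WT), and in CB all genes rise between P7 and P35.

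The region comparisons ask where in the brain each gene was higher at a given age, with the mouse as a block. At E17.5, Camk2a (log2 fold change 1.64, SE 0.47, adjusted p = 0.0149), Camk2d (0.87, SE 0.17) and Camk2b (0.28, SE 0.11) were higher in HIP. Camkk2 (-0.40, SE 0.074) and Camk2g (-0.26, SE 0.061) were lower. Of all tested genes 23.9% were higher and 21.7% lower, and Camk4, Camk1, Camk1d and Camkk1 did not pass. Without replicate 6, in which the embryonic hippocampus held 69.0 CPM, the difference of Camk2a was 1.20. By the start of the mouse name (S2, S3 or S4, 4 mice each of both genotypes), mean Camk2a was 20.2, 4.10 and 41.4 CPM in HIP. It was 8.56, 4.68 and 8.56 CPM in CX and 7.30, 8.86 and 6.15 in CB. In HET mice Camk2a was called in 2 of 6 fits with a mouse left out between HIP and CX. Between CB and HIP it was called in 1 of 6. Camk2d was 6.32-fold higher in CB than in CX (2.66, SE 0.17), Camkk1 was also higher (0.24, SE 0.093), and Camk2b was 2.33-fold lower (-1.22, SE 0.11). Camk1d (-0.51), Camk1 (-0.27) and Camkk2 (-0.25) were lower too, and Camk2a (0.08), Camk2g (0.03) and Camk4 (0.25) did not pass. The background between CB and CX was 31.3% higher and 29.6% lower.

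Between the embryonic cerebellum and hippocampus, where 25.0% of tested genes were higher and 24.1% lower in CB, 4 genes were higher in CB and 4 lower. Camk2d led the first group (log2 fold change 1.79, SE 0.17), followed by Camk4 (0.39), Camkk1 (0.34) and Camk2g (0.28). Camk2a (-1.56, SE 0.49), Camk2b (-1.50, SE 0.11), Camk1d (-0.69, SE 0.18) and Camk1 (-0.27, SE 0.095) were lower in CB, and Camkk2 did not pass (0.15, adjusted p = 0.111). Leaving out single WT mice at E17.5 ended the call of Camkk1 between CB and CX in 2 of 6 cases (0.15 without replicate 3 and 0.19 without replicate 4). It also ended the calls of Camk1 between CB and CX (-0.23) and between CB and HIP (-0.25) without replicate 5, and of Camk2b between HIP and CX (0.24) without replicate 3.

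At P7 the cerebellum stood apart. Camk2d was the 1 gene higher in CB, by 0.53 (SE 0.10) against CX and 1.45 (SE 0.10) against HIP on the log2 scale, and the other 8 were lower in CB in both comparisons. Camk2a was 40.8-fold lower than in CX (-5.35, SE 0.18) and 74.7-fold lower than in HIP (-6.22, SE 0.18), and Camk1d was 7.20-fold and 9.73-fold lower. Camk2b was 4.73-fold and 5.00-fold lower, Camk4 2.40-fold and 2.17-fold, and Camkk1, with the smallest differences, 1.09-fold and 1.50-fold. Over all tested genes 43.5% were higher and 38.5% lower in CB than in CX, and 41.6% higher and 35.3% lower than in HIP. The median log2 fold change of the 9 genes was -1.39 against CX and -1.11 against HIP, beside 0.055 and 0.074 over all tested genes. Between HIP and CX at P7, Camk2a (0.87, SE 0.14), Camkk1 (0.46, SE 0.038) and Camk1d (0.43, SE 0.093) were higher in HIP, where 27.1% of tested genes were higher and 28.5% lower. Camk2d (-0.92, SE 0.10), Camk1 (-0.76, SE 0.057), Camkk2 (-0.71, SE 0.053) and Camk2g (-0.28, SE 0.058) were lower, and Camk4 and Camk2b did not pass.

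In adults 2 genes were higher and 5 lower in CB than in CX. Camk4 (2.89-fold, log2 fold change 1.53, SE 0.083) and Camk2d (2.13-fold, 1.09, SE 0.045) were higher in CB than in CX, while Camk2a was 25.7-fold lower (-4.68, SE 0.23). Camk2g (-1.09), Camk1d (-1.04), Camkk1 (-1.01) and Camk1 (-0.57) were also lower, and neither Camk2b (-0.11, SE 0.065, adjusted p = 0.142) nor Camkk2 (-0.01, SE 0.061, adjusted p = 0.881) passed. In this comparison 38.5% of tested genes were higher and 36.2% lower. Against HIP, with 37.9% of tested genes higher and 36.5% lower, Camk2d was 7.16-fold higher in CB (2.84, SE 0.048), Camk4 5.28-fold (2.40, SE 0.086), Camkk2 2.30-fold and Camk1 1.51-fold. Camk2a was 31.1-fold lower, Camkk1 3.24-fold, Camk1d 2.89-fold, Camk2b 1.89-fold and Camk2g 1.16-fold.

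Adult HIP and CX differed in 8 of the 9 genes, with 25.2% of tested genes higher and 25.5% lower in HIP. Camk2b was 1.75-fold higher in HIP (log2 fold change 0.81, SE 0.065), Camkk1 1.61-fold and Camk1d 1.41-fold. Camk2d was 3.36-fold lower (-1.75, SE 0.046), Camkk2 2.32-fold, Camk1 2.24-fold, and Camk2g and Camk4 each 1.83-fold. Camk2a did not pass between adult HIP and CX (0.28, SE 0.20, adjusted p = 0.283).

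In HET mice the region contrasts gave 62 of 81 pairs called with the same sign as in WT, 6 called in WT alone, 5 in HET alone, 8 in neither and none with opposite signs. The median gap between the 2 genotypes was 0.079 on the log2 scale and the largest 1.02. The HET background at E17.5, P7 and P35 was 51.9%, 52.0% and 58.4% of tested genes between HIP and CX, 60.8%, 78.9% and 79.3% between CB and CX, and 52.5%, 73.7% and 76.4% between CB and HIP.

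Whether a difference between regions itself changed from E17.5 to P35 was tested as an interaction with the mouse as a block. In WT mice 26 of 27 such changes were called, 8 for HIP against CX, 9 for CB against CX and 9 for CB against HIP, where 42.9%, 64.9% and 62.7% of tested genes were called. In HET mice 23 were called, beside 49.7%, 67.7% and 62.8% of tested genes, and 22 were called in both genotypes with the same sign. The difference of Camk2a between CB and CX moved by -4.73 log2 units in WT mice (SE 0.49), from 0.08 to -4.68 in the comparisons within each age, and that of Camk2d by -1.56 (SE 0.18), from 2.66 to 1.09. The Camk2b difference moved the other way, by 1.12 (SE 0.12), from -1.22 to -0.11. Between CB and HIP the difference of Camk4 moved by 2.00 (SE 0.15) and that of Camkk1 by -2.04 (SE 0.11). Between HIP and CX the largest move was that of Camk2d, by -2.59 (SE 0.18), so that a gene higher in the embryonic hippocampus was lower in the adult one.

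Subunit composition of CaMKII depends on the Camk2 genes relative to each other, so the ratio of Camk2a to Camk2b counts was taken within each library. The WT mean of its log2 was -5.37 in CX, -4.27 in HIP and -4.16 in CB at E17.5. It reached -1.94 and -1.13 in CX and HIP at P7 and 0.40 and -0.13 at P35, whereas in CB it was -5.03 at P7 and -4.22 at P35. All 6 period contrasts passed an exact two-sided permutation test (adjusted p = 0.0108 over 15 contrasts), 5 upward and 1, between E17.5 and P7 in CB, downward by 0.87. Between regions, exact sign permutations within mice called 7 of 9 contrasts (adjusted p from 0.0521 to 0.0721), which for 5 mice is close to the smallest p the design allows, 0.0625 before adjustment. HIP against CX and CB against HIP at E17.5 did not pass (adjusted p = 0.167 and 0.875, exact permutation test).

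The share of each gene in the summed Camk2 level, in CPM per kilobase of the union of its exons, places the genes on a common scale. Camk2b was the largest of the 4 in 6 of 9 WT groups, with 65.9% ± 5.2 in embryonic CX, 69.7% ± 3.2 in embryonic HIP and 62.6% ± 1.5 in adult CB. In adult CX Camk2a held 47.8% ± 3.0 and Camk2b 29.7% ± 1.9, and in adult HIP they held 47.6% ± 2.5 and 42.7% ± 2.0. Embryonic CB was led by Camk2g with 44.5% ± 0.93, beside 40.5% ± 0.62 of Camk2b. Camk2d had its highest share, 19.7% ± 0.71, in CB at P7. These shares depend on the length: per kilobase of the longest transcript Camk2b led in 8 of 9 groups, adult CX being 39.5% Camk2a and 36.1% Camk2b, adult HIP 38.9% and 51.4%, and the Camk2d share of P7 CB 33.1%.

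**Figure D3:**
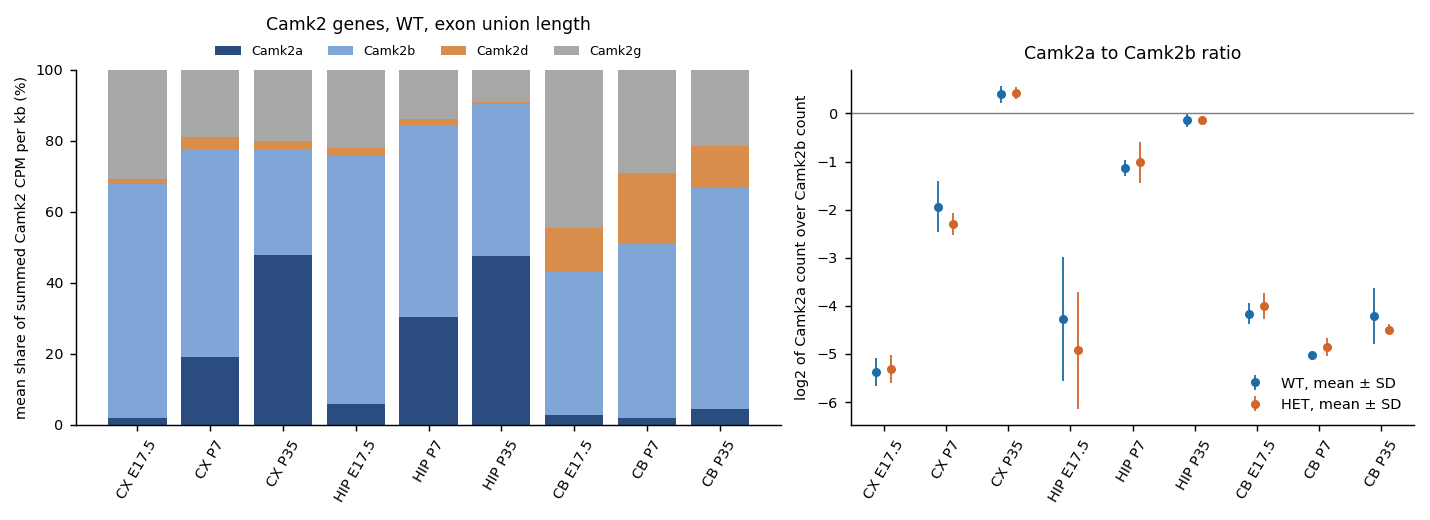
Left, mean WT share (%) of each Camk2 gene in their summed CPM per kilobase of exon union, by region and period; right, log2 of the Camk2a count over the Camk2b count, mean and SD, in WT and HET. The Camk2a share reaches 47.8% in adult CX and 47.6% in adult HIP but 4.38% in adult CB.

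Over the 51 WT libraries, log2 CPM of Camk1d followed Camk2a (Pearson's r = 0.95) and Camk2b (r = 0.93), and Camk2a followed Camk2b (r = 0.88). Camk2d did not follow these genes (r = 0.08 with Camk2a, -0.03 with Camk2b and -0.03 with Camk1d), and its highest correlation within the family was with Camk4 (r = 0.70). These values are descriptions across libraries that share regions, ages and mice. Among 13609 expressed genes with a name, the one most like Camk2a was Rapgefl1 (r = 0.977), then Pcdh1 (0.972) and Mrtfb (0.967). Gpd2 (0.986), Prkce and Mical2 (both 0.953) were most like Camk2b, and Il4ra (0.964), Cdh22 (0.935) and Cacng2 (0.933) most like Camk2d. The closest genes were Cep170b for Camk2g (0.966), Reep2 for Camk4 (0.962), Prkacb for Camk1 (0.897), Dmxl2 for Camk1d (0.973), Nmt1 for Camkk1 (0.977) and Lrrc24 for Camkk2 (0.959). In the 51 HET libraries the r of these 9 nearest genes lay between 0.883 and 0.984.

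The promoters of 3 genes are shown because Camk1d and Camk2b moved together across the libraries and Camk2d did not. Each is the 250 bases before a start of transcription in RefSeq, build GRCm38.p6, 5′ to 3′ on the strand of the gene. By the gene positions given above, the windows of Camk2b and Camk2d lie inside the gene, after its outermost start. The window of Camk1d lies before its gene. Capitals mark the letters TGACG (part of a CREB binding site) and CANNTG (an E-box), searched on both strands, which do not overlap each other here.
Camk1d, chr2:5714763-5715012 (-): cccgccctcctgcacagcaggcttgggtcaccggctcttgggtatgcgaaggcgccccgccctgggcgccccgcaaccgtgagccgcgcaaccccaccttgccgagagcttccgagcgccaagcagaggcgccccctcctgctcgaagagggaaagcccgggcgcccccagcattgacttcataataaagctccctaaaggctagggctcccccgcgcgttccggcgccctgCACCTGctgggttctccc
Camk2b, chr11:6065749-6065998 (-): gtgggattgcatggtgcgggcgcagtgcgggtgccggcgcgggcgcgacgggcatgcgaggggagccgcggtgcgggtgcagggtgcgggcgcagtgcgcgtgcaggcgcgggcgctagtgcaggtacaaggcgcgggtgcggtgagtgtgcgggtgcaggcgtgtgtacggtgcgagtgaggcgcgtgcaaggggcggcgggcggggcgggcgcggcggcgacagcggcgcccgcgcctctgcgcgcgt
Camk2d, chr3:126596701-126596950 (+): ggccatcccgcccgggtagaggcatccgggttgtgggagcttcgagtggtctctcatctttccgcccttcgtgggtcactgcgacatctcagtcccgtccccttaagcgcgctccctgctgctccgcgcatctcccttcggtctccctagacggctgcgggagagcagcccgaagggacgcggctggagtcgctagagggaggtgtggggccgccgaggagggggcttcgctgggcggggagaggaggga
This Camk1d window held 1 E-box and no TGACG, and neither motif occurred in the windows of Camk2b and Camk2d. A second Camk1d window in RefSeq, at chr2:5676047-5676296 (-), held 2 E-boxes and no TGACG. Among windows not shown, that of Camk1 held 1 TGACG and 4 E-boxes, that of Camkk1 held 1 TGACG and no E-box, and that of Camkk2 held neither. The window of Camk2a, which of the family followed Camk1d most closely, is not shown either. Of 32851 promoter windows of this length, 17.8% held TGACG and 66.2% held CANNTG.

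Genes that act around the CaM kinases were read in 4 groups, by counts. Calmodulin, its small binding proteins and the CaMKII inhibitors (9 genes) were called higher at P7 than at E17.5 for 9 of 9 in WT CX and 8 of 9 in WT HIP, where 41.3% and 38.9% of all tested genes were higher, with median log2 fold changes of 2.00 and 1.299. Nrgn, which binds calmodulin at low calcium, rose most in both regions (log2 fold change 5.81, SE 0.42, in CX and 5.82, SE 0.49, in HIP). Camk2n1, an inhibitor of CaMKII, rose by a further 2.59 (SE 0.11) between P7 and P35 in CX, while Gap43 fell by 2.55 (SE 0.21). In adult CB against CX, Nrgn (log2 fold change -9.47, SE 0.13) and Camk2n1 (-3.497, SE 0.060) were lower, and Pcp4 (1.52, SE 0.082) and Camk2n2 (0.34, SE 0.065) were higher.

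Of 9 calcineurin subunits, regulators and CaM kinase phosphatases, 8 rose and 1 fell between E17.5 and P7 in CX, and 7 rose and 1 fell in HIP, beside 41.3% and 40.6% of all tested genes in CX and 38.9% and 39.1% in HIP. The calcineurin subunit Ppp3r1 rose by 1.40 (SE 0.070) between P7 and P35 in CX and Ppp3ca by 1.10 (SE 0.055) in CB, and Ppm1e, a CaM kinase phosphatase, was lower in adult CB than in CX (-2.83, SE 0.076). Among 12 other CaM kinases and related kinases, 6 rose and 2 fell between E17.5 and P7 in CX, and 2 rose and 8 fell in CB, where 35.7% of all tested genes rose and 35.5% fell. Camkv, a pseudokinase of the family, rose by 1.44 (SE 0.16) in CX over that interval and was lower in adult CB than in CX (-6.78, SE 0.091), and Camk1g rose by 2.01 (SE 0.13) between P7 and P35 in CB. Of 17 substrates and partners, 7 rose and 6 fell between E17.5 and P7 in CX, a split near that of all tested genes (41.3% and 40.6%). Among them Syn1 rose by 2.30 (SE 0.34) and Creb1 fell by 1.17 (SE 0.065). In CB, 11 of the 17 rose and 4 fell between P7 and P35, beside 40.0% and 39.4% of all tested genes, led by Tiam1 upward (3.23, SE 0.092) and Stmn1 downward (-2.83, SE 0.077).

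In the embryonic cortex and hippocampus, levels differed with the start of the mouse name. At E17.5 the names start with S2, S3 or S4, with 4 mice each (2 WT and 2 HET), and the labels do not say what this stands for. A comparison of the 3 starts, with genotype as a covariate, was chosen after the values had been seen. It called 9 of 9 CaM kinase genes in CX, where 41.9% of tested genes were called, 7 in HIP (29.7%) and 3 in CB (27.4%), by edgeR's quasi-likelihood F test. In HIP the 4 S3 mice held 1.75 to 6.07 CPM of Camk2a, below the S2 mice (12.2 to 35.2) and the S4 mice (28.8 to 69.0). Camk4 (29.4 to 41.4 CPM in S3, 64.4 to 105 in the others) and Camk2b (202 to 306 in S3, 353 to 435 in the others) were also without overlap in HIP. In CX, Camk2b was at 144 to 223 CPM in S3 mice and at 296 to 389 in the others. In CB the S3 mice had the highest mean of Camk2a (8.86 CPM, beside 7.30 and 6.15). At P7 the names start with C1, C2 or C4, and 1 gene was called in CX (Camkk2, adjusted p = 0.0867, 1.59% of tested genes), none in HIP (0%) and none in CB (0.0748%). Each start held both genotypes, but its part in the differences between E17.5 and P7 cannot be told apart from age.

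**Figure D4:**
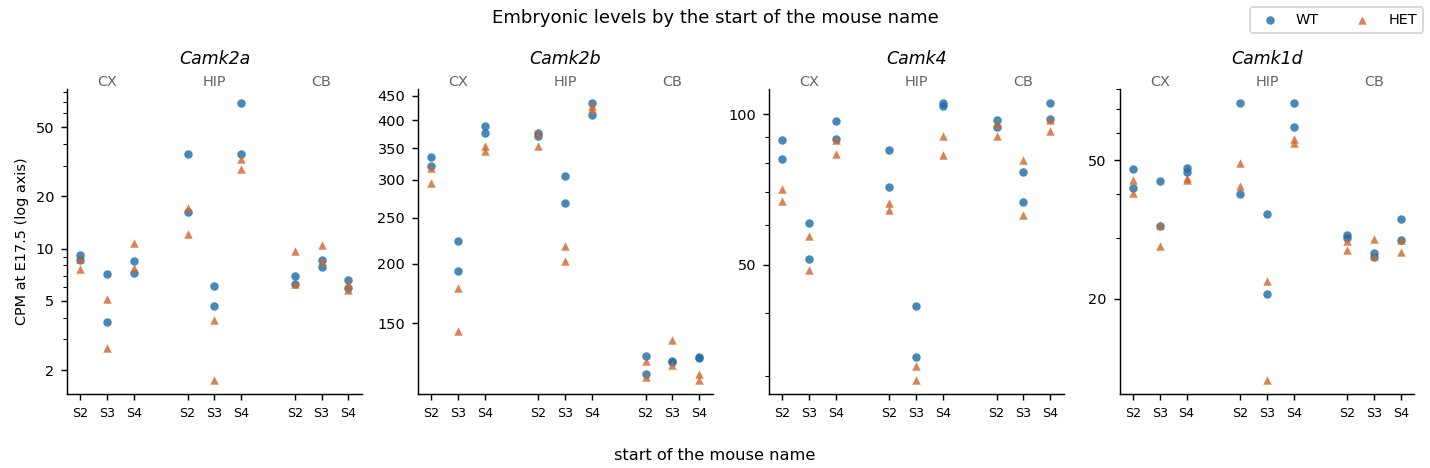
CPM (log axis) of Camk2a, Camk2b, Camk4 and Camk1d in each E17.5 library by region and by the start of the mouse name, circles WT and triangles HET. In HIP the S3 mice lie below the others for Camk2a, at 1.75 to 6.07 CPM against 12.2 to 69.0.

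The library highest in Camk2a was in 5 of 9 datasets also the one with the highest share of counts in gene classes that lie within introns or lack an established transcript (sense_intronic and TEC). For the P7 cortex with 436 CPM this share was 0.307% beside a median of 0.215% in its dataset, for the adult cerebellum with 68.4 CPM 0.248% beside 0.178%, and for the embryonic hippocampus with 69.0 CPM 0.306% beside 0.228%. Striatal marker genes (6 genes, mean log2 CPM) scored 1.80 in that hippocampus, beside -0.85 to 0.25 in the other WT ones of its group. The scores were 1.39 in that P7 cortex, within the range of its group, and -1.44 in that adult cerebellum, beside -1.84 to -1.76 in the others. Replicate 2 of P7 WT CX, highest in Camk2d at 173 CPM, scored 2.72, beside 0.92 to 1.39 in the others. Forebrain projection neuron markers (6 genes) scored 7.22 in the P7 cortex with 436 CPM, beside 6.78 to 7.03 in the other WT ones. They scored 2.17 in the adult cerebellum with 68.4 CPM, beside 1.86 to 2.00. In the embryonic hippocampus with 69.0 CPM they scored 5.77, within the range of its group. Immediate early genes scored 3.55, 4.36 and 1.08 in these 3 libraries, beside 2.99 to 3.52, 3.49 to 3.77 and 0.47 to 0.90. The part of the sense_intronic and TEC share and of these scores in the levels was not tested.

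The last comparison asks whether Cul3 haploinsufficiency changed these genes. None of the 81 tests of a CaM kinase gene in a dataset passed (edgeR quasi-likelihood test, lowest adjusted p = 0.341), and 2 had an unadjusted p under 0.05. In each dataset, fitted without a block, Cul3 was the 1 gene called among all tested, which is 0.00603%, 0.00586% and 0.00568% of tested genes in CX, HIP and CB at E17.5, 0.00566%, 0.00563% and 0.00570% at P7, and 0.00569%, 0.00584% and 0.00584% at P35. Over all tested genes between 277 (E17.5 CX) and 2459 (P35 CB) had an unadjusted p under 0.05. A DESeq2 fit and the other alternatives gave 380 further fits with no CaM kinase gene called in any, at a lowest adjusted p of 0.205 (Camk4 in E17.5 CX with the replicate number as a block, log2 fold change -0.16). In that dataset WT and HET libraries of the same replicate number shared the start of the mouse name. The blocked edgeR fit called 56 of 17676 genes (0.317%), with an unadjusted p under 0.05 for 2491. Among the CaM kinase genes it gave 4 of 9 an unadjusted p under 0.05, all lower in HET: Camk4 (-0.16, SE 0.046), Camk2b (-0.20, SE 0.057), Camkk2 (-0.12, SE 0.042) and Camk1d (-0.15, SE 0.058). Their adjusted p ran from 0.205 to 0.3002 in the blocked edgeR fit.

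Without the block, both genes with an unadjusted p under 0.05 were in adult CB. Camk4 held 1362, 1334, 1600, 1429 and 1202 CPM in WT and 1174, 1287, 1281, 1209 and 1288 in HET cerebella. Its difference on the log2 scale was -0.17 (SE 0.070), with an adjusted p of 0.341. Camk2d held 259, 265, 277, 269 and 262 CPM in WT and 229, 256, 250, 245 and 268 in HET (-0.12, SE 0.048, adjusted p = 0.343). The ranges of the genotypes overlapped for both genes. Of the 81 differences 57 were negative and 24 positive with a median of -0.046, from -0.79 (Camk2a in E17.5 HIP, SE 0.72) to 0.17. Medians over all tested genes lay between -0.0028 (P35 HIP) and 0.0069 (P7 HIP). The 81 share mice across regions and genes, so their signs are not independent. The share of negative signs over all genes was not computed. Leaving Camk2a aside, the differences of the family lay between -0.36 and 0.10. The 95% intervals, on the residual degrees of freedom of each dataset (10 for 12 libraries, 8 for 10), stayed within 1 log2 unit of 0 for 77 of 81 tests and within 0.5 for 67. The other 4 were Camk2a (-2.39 to 0.80), Camk1d (-1.20 to 0.49) and Camk4 (-1.03 to 0.47) in E17.5 HIP and Camk2a in P35 CB (-1.15 to 0.12). Camk2a in E17.5 HIP was the least resolved of all tests.

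**Figure D5:**
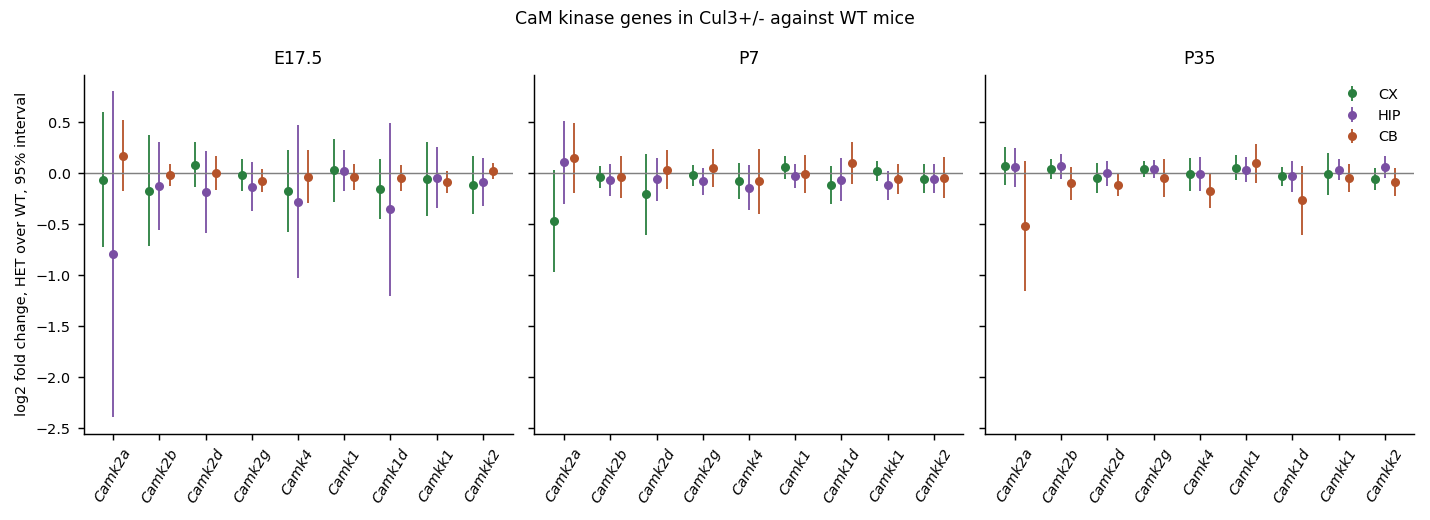
Log2 fold change of HET over WT for each gene, by period and region, with its 95% interval, fitted without a block. The widest interval is that of Camk2a in E17.5 HIP, from -2.39 to 0.80.

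The mean over the 3 regions of a mouse, fitted with limma-voom, called no CaM kinase gene (lowest adjusted p = 0.885). The smallest unadjusted value was that of Camk4 at P7, with a log2 fold change of -0.12. Of all tested genes it called 0.00537% at E17.5, 0.0310% at P7 and 0.00525% at P35. Interactions of genotype with period called none of the genes and 0% of tested genes in each region, and those with region called none, beside 0%, 0% and 0.00513% of tested genes at E17.5, P7 and P35. At an unadjusted p under 0.05, the edgeR interactions gave 1 test of these genes (Camk2a, genotype by region at P7, adjusted p = 0.831). Among the WT cortices in that test, 1 library held 436 CPM of Camk2a, beside 152 to 207 in the others. The Camk2a to Camk2b ratio did not differ between the genotypes beyond its spread in any dataset (adjusted p from 0.526 to 0.929, exact two-sided permutation test, 9 datasets). In P7 CB, where it was 0.17 higher in HET on the log2 scale, it passed without HET replicate 5 (0.23, adjusted p = 0.0390, exact permutation test). None of the related genes was called in any of these genotype comparisons.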

How the data were processed

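The authors trimmed paired reads of stranded, ribosomal RNA-depleted libraries with Cutadapt 1.14, aligned them with STAR 2.5.3a to GRCm38.p5 and summed them with RSEM 1.3, and they deposited expected counts per gene, of which 5.76% were not whole. Values were rounded, and genes were filtered by filterByExpr (minimum count 10, minimum total 15), normalized by TMM and tested with edgeR 4.0.16 in R 4.3.3, with Benjamini-Hochberg adjustment over all genes and calls at 0.1. Genotype was tested in each dataset, periods within a region and genotype, regions with the mouse as a block. Totals ran from 15126114 to 44411282 counts, with no molecular identifiers.

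Further fits used DESeq2 1.42.0, upper-quartile scaling, all genes unfiltered, a likelihood ratio test, RUVs with 3 or 5 factors, Xist as a covariate, replicate blocks, the genotypes of either source and each replicate left out. limma 3.58.1 fitted means over regions. Names were given to 99.6% of gene identifiers. All 9 members were named with levels and contrasts in WT, with genotype differences at an unadjusted p under 0.05, the 3 genes most like each and the extremes of related lists. Members and lists were chosen with earlier results of these data known. The 240 pairs of replicates all differed beyond sampling noise (chi-square per degree of freedom of at least 5.73). Whether mice were littermates is not given, so p-values measure the spread between these mice. By the data, the replicate numbers paired WT and HET libraries in E17.5 CX, where 6 of 6 correlations of deviations were above 0.1 (0.113 to 0.759). In E17.5 HIP and CB, 5 of 6 were above 0.1 (medians 0.335 and 0.292). By the labels, libraries of the same number at E17.5 share the start of the mouse name in both genotypes. The pairing cannot be told apart from that start. The tests were tried on simulated data.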

Additional observations from a re-analysis of the deposited data

Results flagged for a closer look

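Of 162 groups of a gene, period, region and genotype, 7 held a sample far from the others of its group, where chance gives about 8.1 (5 in 100 groups). Camk2a was at 436 CPM in replicate 4 of WT CX at P7, beside 152 to 207 in the others. Camk2d was at 173 CPM in replicate 2 of the same group, beside 94.4 to 117. In adult WT CB, replicate 3 was highest in Camk2b (693 CPM, others 545 to 587) and in Camk2g (176 CPM, others 129 to 140). Camk2b was lowest in replicate 2 of WT CB at E17.5 (117 CPM, others 125 to 128). Camkk1 was highest in replicate 4 of adult WT CX (149 CPM, others 101.9 to 115), and Camkk2 in replicate 2 of adult HET CB (352 CPM, others 310 to 320).

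The change from E17.5 to P35 differed between regions, by an interaction test in WT and in HET mice with the same sign, for 22 of 27 pairs of a gene and 2 regions. In log2 units of the WT mice, CB minus CX moved by -4.73 for Camk2a, 1.12 for Camk2b, -1.56 for Camk2d, -1.11 for Camk2g, 1.298 for Camk4, -0.51 for Camk1d and -1.23 for Camkk1. CB minus HIP moved by -3.38 for Camk2a, 1.04 for Camk2d, -0.52 for Camk2g, 2.00 for Camk4, 0.84 for Camk1, -0.86 for Camk1d, -2.04 for Camkk1 and 1.03 for Camkk2. HIP minus CX moved by 0.55 for Camk2b, -2.59 for Camk2d, -0.59 for Camk2g, -0.70 for Camk4, -1.13 for Camk1, 0.81 for Camkk1 and -0.78 for Camkk2.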

How the results depend on the processing

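Under the alternatives, 551 counts of members called between periods or regions stayed within 1.5 times the main value. The 1 exception was CB against CX at E17.5 in HET mice, with 3 called with no replicate block and 5 with it. The 380 counts of members called between genotypes stayed at 0, the replicate block included, which in E17.5 CX called 56 genes of all tested in place of 1. Among single fold changes 4857 kept direction and call, 48 gained a call, 42 lost it and 21 reversed. Without the replicate block, which here is the mouse, Camk2a between CB and CX at E17.5 was -0.051 in WT and Camk1d between HIP and CX 0.057 in HET mice. Upper-quartile normalization reversed HIP against CX at E17.5 for Camk1 (0.032 in WT, 0.038 in HET) and Camk1d (0.00022 in HET), and DESeq2 for Camk1 in WT (0.0028). With library totals in place of TMM, 5 of 9 genes kept their highest and lowest group. For the P7 name starts, no filter gave 4 genes in CB and 2 in CX and upper-quartile normalization 0 in CX, and single libraries left out gave 0 to 5 in CX, 0 to 4 in CB and 0 to 1 in HIP. The cause was not tested.

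Leaving out single replicates reversed differences near 0: Camk2g between CB and CX at E17.5 ran from -0.081 to 0.025 in HET and from -0.0019 to 0.069 in WT, and Camk2a there from -0.22 to 0.20 in WT. Camkk2 between CB and CX at P35 ran from -0.040 to 0.0011 in HET and from -0.064 to 0.035 in WT. Between HIP and CX, Camk1 at E17.5 ran from -0.034 to 0.064 in HET and from -0.077 to 0.080 in WT, Camk1d from -0.15 to 0.14 and Camk2b at P7 from -0.00043 to 0.081, both in HET. The log2 ratio of Camk2a to Camk2b between genotypes ran from -0.020 to 0.20 in P7 HIP, 0.12 to 0.23 in P7 CB (past the threshold at 0.23, without HET replicate 5), -0.044 to 0.068 in P35 CX and -0.037 to 0.038 in P35 HIP. Between regions it ran from -0.26 to 0.50 for CB against HIP at E17.5. At P35 the ratio lost its call with a mouse fewer, the exact test having fewer arrangements. That held for HIP against CX (-0.59 to -0.49), CB against CX (-4.80 to -4.47) and CB against HIP (-4.27 to -3.94). For HIP against CX at P7 it lost its call in 10 of 12 fits (0.75 to 0.79) and kept it without replicate 4 (0.98). The SE of the genotype differences, fitted without a block, ran from 0.033 to 0.72, and differences of the size of their SE were not detectable.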
